A study of Homo sapiens with 11 samples.

Results

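The genes described here are the 43 listed members of the nuclear receptor family, chosen by name, out of 19645 protein-coding genes with both an RNA value and an hg19 transcription start site (TSS). They were measured in HK2, an immortalised line of human proximal tubule epithelial cells kept in culture medium with serum and a trace of DMSO. The data are 2 RNA-seq libraries and 2 ChIP-seq replicates for each of 3 histone marks: H3K4me3, found at promoters, H3K27ac, found at promoters and enhancers in use, and H3K27me3, laid down by Polycomb at repressed genes. The input DNA and the H3K27ac HiChIP samples of the series were not analysed here. All samples are of 1 cell line under 1 condition, so no groups were contrasted, no test was run and the values are descriptions of these samples. Nothing in the sources says whether replicates came from separate cultures, so an SD over 2 libraries may be technical.

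Nuclear receptors are transcription factors that bind DNA through a zinc finger domain and, in many members, are switched by a small lipophilic ligand such as a steroid, a retinoid, thyroid hormone, a fatty acid or an oxysterol. Several bind DNA as heterodimers with a retinoid X receptor, others as homodimers or monomers, and orphan members have no accepted natural ligand or act without one. In the proximal tubule the family is known for the control of fatty acid oxidation, lipid handling, steroid response and the circadian programme.

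The FPKM values of all transcripts of a gene were added up, and a gene was called expressed when this sum reached 1 in each library. StringTie's coverage values correspond to 5.67 and 5.52 Gb of aligned sequence in libraries 1 and 2, so an FPKM of 1 stands for a mean coverage of 5.67 and 5.52 per base. A mark was called at a TSS where a peak of each replicate overlapped the window of 1 kb on either side of it by at least 1 bp. The peak lists hold positions without height, so the depth behind a peak is unknown. The replicates differed in number and width of peaks, with a median width of 1357 bp against 657 bp for H3K27ac replicates 1 and 2. H3K27ac reached a TSS of 67.5% of all protein-coding genes in replicate 1 and of 55.1% in replicate 2. H3K4me3 had 28615 peaks in replicate 1 and 73505 in replicate 2, with median widths of 1194 and 434 bp. Of 13 proximal tubule markers, 5 were expressed, led by PAX8 at 100 and 104 FPKM, while LRP2, SLC22A6 and SLC22A8 were listed at 0 in both libraries. Of 5 markers of simple epithelium 4 were expressed, and of 6 of the distal nephron, 5 of leukocytes and 3 of endothelium none was. Of 5 markers of podocytes SYNPO (14.7 and 16.2 FPKM) and PODXL (4.41 and 5.85 FPKM) were expressed, while WT1 was listed at 0 in both libraries, and of 6 of fibroblasts COL1A1 (40.3 and 39.9 FPKM) and LUM (3.48 and 3.33 FPKM) were.

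Of the 43 receptor genes 23 were expressed (53.5%), against 58.8% of all protein-coding genes. Their median FPKM was 1.29, against 3.32 for all, and among expressed genes 7.43 against 11.1. H3K4me3 lay at a TSS of 34 receptor genes (79.1%; all genes 70.0%) and H3K27ac at 22 (51.2%; all genes 55.0%). H3K27me3 lay at 10 (23.3%; all genes 11.2%). The active pattern, H3K4me3 and H3K27ac without H3K27me3, was found at 21 genes (48.8%; all genes 52.1%), and 6 genes had none of the marks in both replicates (14.0%; all genes 24.0%). H3K4me3 and H3K27me3 within 1 kb of the same TSS were found at 7 genes (16.3%; all genes 6.38%). That last count depends on the choice of start sites, and at the canonical TSS alone it was 1 gene, ESR2, which is 2.33% of the receptor genes against 5.42% of all genes. Receptor genes had a median of 8 start sites, against 5 for all genes, and the part of this number in the counts was not tested. By the canonical TSS alone H3K27me3 was at 8 receptor genes (18.6%; all genes 9.41%) and the active pattern at 16 (37.2%; all genes 49.3%).

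All 23 expressed receptor genes had H3K4me3, and 18 of them had the active pattern (9482 of the 11549 expressed protein-coding genes). The other 5, PPARA, PPARD, NR2F1, NR3C2 and NR4A1, had an H3K27ac peak at a TSS in replicate 1 and none in replicate 2. Among the 18, NR1H3 had H3K27ac in both replicates only at its 3′-most start region, from chr11:47289496, with 0.082 and 0.002 FPKM. The NR1H3 start regions that carried most of its RNA had H3K27ac in replicate 1 alone. Of the 20 genes that were not expressed, 11 had H3K4me3, 9 had H3K27me3 and 6 had both at 1 TSS, 6 had no mark in both replicates and 3 had the active pattern. Shares over all genes were not computed for these 20, nor for H3K4me3 among expressed genes. Of the receptor genes with the active pattern 85.7% were thus expressed, against 92.7% of all protein-coding genes with it. With H3K4me3 and H3K27me3 at 1 TSS it was 14.3% against 21.7%, and with no mark it was none of 6 against 4.21%. The map of marks by replicate shows this as a block of H3K4me3 and H3K27ac in the upper rows and of H3K27me3 in the lower rows.

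**Figure D1:**
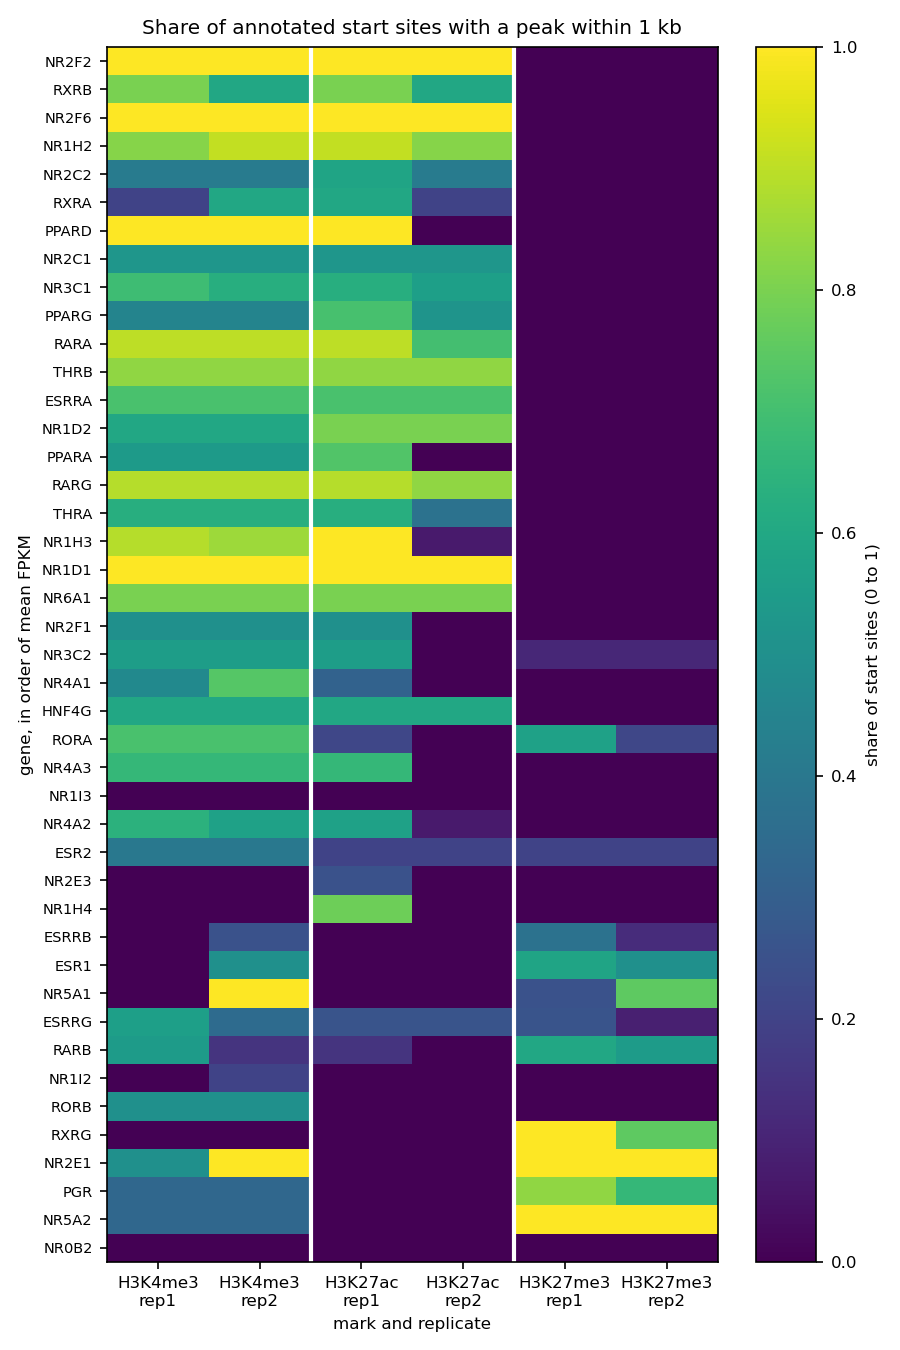
Share of the annotated start sites of each of the 43 receptor genes (rows, in order of mean FPKM) that had a peak within 1 kb, for each mark and replicate (columns); the colour runs from 0 to 1. H3K27ac reached a TSS of 32 genes in replicate 1 and of 22 in replicate 2, and H3K27me3 a TSS of 12 genes in each replicate.

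The promoter sequences that follow were chosen because the RNA and the marks differ between them. Each is the 250 bases before a start region (start sites within 500 bp of each other), read from GRCh37 (hg19) on the strand of the gene, with each CG dinucleotide in capitals. For NR2F2, the receptor gene of highest FPKM, the start region 5′-most in the annotation lies after chr15:96868917-96869166 (+) and the canonical one after chr15:96873679-96873928 (+), and both had H3K4me3 and H3K27ac.
NR2F2 5′-most start: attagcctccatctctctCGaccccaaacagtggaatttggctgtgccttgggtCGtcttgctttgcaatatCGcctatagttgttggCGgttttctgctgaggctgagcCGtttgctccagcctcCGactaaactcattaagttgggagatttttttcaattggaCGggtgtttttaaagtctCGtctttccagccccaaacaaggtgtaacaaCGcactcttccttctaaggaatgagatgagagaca
NR2F2 canonical start: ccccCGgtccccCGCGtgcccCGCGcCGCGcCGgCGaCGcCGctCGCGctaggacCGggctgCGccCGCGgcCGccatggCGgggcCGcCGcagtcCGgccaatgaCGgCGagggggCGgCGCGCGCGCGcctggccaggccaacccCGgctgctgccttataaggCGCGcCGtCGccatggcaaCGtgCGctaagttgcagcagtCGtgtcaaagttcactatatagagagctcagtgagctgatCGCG
The first holds 9 CG and the second 40. For RXRA, the canonical start follows chr9:137218051-137218300 (+) and the start that carried most of the RNA follows chr9:137263567-137263816 (+).
RXRA canonical start: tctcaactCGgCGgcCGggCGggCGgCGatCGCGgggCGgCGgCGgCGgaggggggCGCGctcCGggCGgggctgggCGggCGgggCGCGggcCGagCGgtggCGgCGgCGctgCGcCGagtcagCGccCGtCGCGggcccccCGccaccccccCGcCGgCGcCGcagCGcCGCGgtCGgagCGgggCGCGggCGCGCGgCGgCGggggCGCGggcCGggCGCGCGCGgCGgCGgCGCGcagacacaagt
RXRA internal start: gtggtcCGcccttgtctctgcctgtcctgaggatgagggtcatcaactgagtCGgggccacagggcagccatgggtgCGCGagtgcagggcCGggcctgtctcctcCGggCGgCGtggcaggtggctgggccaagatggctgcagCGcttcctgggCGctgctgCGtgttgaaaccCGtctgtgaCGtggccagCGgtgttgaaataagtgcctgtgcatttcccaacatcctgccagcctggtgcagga
The canonical RXRA window holds 59 CG, at an observed over expected CpG of 1.22, and the internal window 14, at 0.54.

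Among genes that were not expressed, RARB and NR5A2 show H3K4me3 and H3K27me3 together at a start region that is rich in CG, at chr3:24870564-24870813 (+) and chr1:200011703-200011952 (+). The canonical start of NR5A2, after chr1:199996492-199996741 (+), had H3K27me3 alone.
RARB start with both marks: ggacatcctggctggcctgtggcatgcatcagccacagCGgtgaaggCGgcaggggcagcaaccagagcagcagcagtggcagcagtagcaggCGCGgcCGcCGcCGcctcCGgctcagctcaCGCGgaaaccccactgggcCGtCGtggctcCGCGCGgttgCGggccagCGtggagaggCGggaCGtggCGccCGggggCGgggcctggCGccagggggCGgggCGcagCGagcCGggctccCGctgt
NR5A2 start with both marks: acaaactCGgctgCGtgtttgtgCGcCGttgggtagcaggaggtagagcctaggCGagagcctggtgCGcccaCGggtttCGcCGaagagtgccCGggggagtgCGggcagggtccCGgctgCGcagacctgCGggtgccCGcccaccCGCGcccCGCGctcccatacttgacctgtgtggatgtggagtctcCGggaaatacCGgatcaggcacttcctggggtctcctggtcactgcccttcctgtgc
NR5A2 canonical start: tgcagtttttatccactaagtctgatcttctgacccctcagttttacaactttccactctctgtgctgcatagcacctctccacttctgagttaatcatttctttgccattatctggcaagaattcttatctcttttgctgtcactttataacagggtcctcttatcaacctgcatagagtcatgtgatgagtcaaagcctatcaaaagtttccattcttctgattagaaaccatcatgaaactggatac
The first pair holds 28 and 21 CG and the canonical NR5A2 window none. NR5A2 had a further start region with both marks in both replicates, at chr1:200012938, whose sequence is not shown. The window before that start holds 0 CG, at a GC content of 29.6%. Its H3K4me3 call rests on the same peaks as that of the CG-rich start. They end at chr1:200012167 in replicate 1 and chr1:200012234 in replicate 2, before this start, and reach it only through the 1-kb window. It is therefore not a separate H3K4me3 peak at a start without CG. The canonical RARB promoter is known for a retinoic acid response element, a direct repeat bound by RAR and RXR. In the 30 bases of it shown, at chr3:25469695-25469724 (+), the GTTCA of each copy is in capitals.
RARB canonical element: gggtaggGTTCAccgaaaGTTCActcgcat
In the canonical start region that holds this element H3K27me3 was called in both replicates and H3K4me3 in replicate 1 alone.

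Thyroid hormone and retinoic acid receptors, which sit on DNA with a retinoid X receptor and recruit corepressors until ligand arrives, had 4 of 5 genes expressed. THRB (ENSG00000151090, chr3:24158644-24537247), the thyroid hormone receptor beta, was at 7.35 and 7.51 FPKM in libraries 1 and 2, a mean of 7.43 ± 0.115 (SD, n = 2). THRA (ENSG00000126351, chr17:38214543-38250120), the alpha receptor, was at 4.79 and 3.44, the widest gap between libraries among expressed receptor genes at 1.39-fold. RARA (ENSG00000131759, chr17:38465432-38513895) was at 7.34 and 9.22 and RARG (ENSG00000172819, chr12:53604351-53626764) at 3.76 and 4.77, and all these genes had the active pattern. RARB (ENSG00000077092, chr3:24729378-25639423), itself a retinoic acid target, was at 0.017 and 0 FPKM. Its H3K4me3 and H3K27me3 peaks shared 590 bp in replicate 1, taking the start region with both marks and the canonical one together. In replicate 2 they shared 1107 bp, all at the start region with both marks. H3K27me3 covered 6.50 and 2.49 kb of the gene and its 5-kb flanks.

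The 3 peroxisome proliferator-activated receptors, which are fatty acid sensors, were all expressed. PPARD (ENSG00000112033, chr6:35310335-35395968) was at 10.1 and 10.1 FPKM, with no difference at this rounding between libraries. PPARG (ENSG00000132170, chr3:12328867-12475855), the adipogenic receptor that also binds thiazolidinediones, was at 7.96 and 9.38, and PPARA (ENSG00000186951, chr22:46546424-46639652), a regulator of fatty acid oxidation, at 4.63 and 5.27. PPARG had the active pattern. PPARA and PPARD had H3K4me3 in both replicates and H3K27ac at a TSS in replicate 1 alone. Most PPARG RNA came from its 5′-most start region, which begins at chr3:12328867, with 5.73 and 5.25 FPKM there. The start region from chr3:12392971 to chr3:12393068, 64104 bp downstream, was at 0.053 and 0.930 FPKM and had no mark in both replicates. Transcripts that could not be placed on hg19 held a further 1.37 and 2.47 FPKM of PPARG.

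REV-ERB receptors are heme-binding repressors of the circadian clock, and ROR receptors activate from the same DNA elements. NR1D2 (ENSG00000174738, chr3:23986777-24022108), REV-ERB beta, was at 6.12 and 6.87 FPKM and NR1D1 (ENSG00000126368, chr17:38249046-38256842), REV-ERB alpha, at 1.71 and 1.89, both with the active pattern. NR1D1 and THRA overlap at their 3′ ends on opposite strands and the use of strand in the counting is not given in the sources used here, so their reads cannot be told apart there. RORA (ENSG00000069667, chr15:60780483-61521501) was at 0.193 and 0.701, a 3.64-fold gap between libraries, and had H3K4me3 and H3K27me3 at 2 start regions, where the peaks shared 2071 and 2051 bp. RORB (ENSG00000198963, chr9:77112251-77308093) was at 0 and 0.006 with H3K4me3 alone at 1 of its start sites. The REV-ERB genes were thus above the ROR genes in both libraries with no overlap.

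Liver X receptors, the oxysterol sensors of cholesterol efflux, were the expressed members of the next group. NR1H2 (ENSG00000131408, chr19:50832910-50886645), LXR beta, was at 21.0 and 24.5 FPKM, and NR1H3 (ENSG00000025434, chr11:47269851-47290584), LXR alpha, at 4.20 and 3.28, so the beta gene was the higher in each library. The bile acid receptor gene NR1H4 (ENSG00000012504, chr12:100867486-100958192) was at 0.018 and 0.080, and the xenobiotic receptor genes NR1I2 (ENSG00000144852, chr3:119499331-119537334) and NR1I3 (ENSG00000143257, chr1:161199456-161208034) at 0.012 and 0 and at 0.103 and 0.251. None of these had a mark in both replicates at a TSS. NR1H4 had H3K27ac at 7 start sites in replicate 1 alone, NR1I2 had H3K4me3 at 1 in replicate 2 alone, and NR1I3 had no peak at a TSS in any list.

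Retinoid X receptors are the shared partners of several of the receptors above. RXRB (ENSG00000204231, chr6:33161365-33168442) was at 25.0 and 24.9 FPKM, RXRA (ENSG00000186350, chr9:137208944-137332431) at 13.2 and 13.2, and RXRG (ENSG00000143171, chr1:165370159-165414592) was listed at 0 in both libraries. RXRA and RXRB had the active pattern, while RXRG had H3K27me3 at 3 of its start sites in both replicates and no H3K4me3 or H3K27ac peak at a TSS. H3K27me3 covered 19.3 and 3.91 kb of RXRG and its flanks. HNF4G (ENSG00000164749), a relative of the hepatocyte factor HNF4A, had the active pattern at its 5′-most start region at 0.721 and 0.914 FPKM, under the threshold in both libraries. H3K27me3 covered 3.72 and 2.87 kb of HNF4G and its flanks without a call at a TSS, and the region shared by the replicates lay in the upstream flank.

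Among the testicular receptors, orphan receptors that bind the same direct repeats as RAR and RXR, NR2C2 (ENSG00000177463, chr3:14989090-15095107) was at 15.0 and 17.8 FPKM and NR2C1 (ENSG00000120798, chr12:95414005-95467404) at 9.37 and 10.8, both with the active pattern. NR2E1 (ENSG00000112333, chr6:108487226-108510009), known from neural stem cells, was listed at 0 in both libraries. It had H3K27me3 at all 4 of its start sites in both replicates, and H3K4me3 at 2 of them, with 1569 and 3383 bp under both marks. An annotated start of OSTM1, on the opposite strand, lies 168 bp from a start site of NR2E1. All transcripts of OSTM1 together were at 8.86 and 9.87 FPKM, and how much of this came from that start was not measured. The part of this neighbour in the H3K4me3 was not tested. NR2E3 (ENSG00000278570, chr15:72084977-72110600), a photoreceptor factor, was at 0.025 and 0.081 FPKM with an H3K27ac peak at 1 start site in replicate 1 alone.

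COUP-TF genes, orphan receptors of organ development, had the highest summed level of any group at 55.5 FPKM, and all 3 were expressed. NR2F2 (ENSG00000185551, chr15:96869167-96883492) was at 29.4 and 31.3 FPKM, 30.4 ± 1.37 (SD, n = 2), the first of all receptor genes. NR2F6 (ENSG00000160113, chr19:17342692-17356728) was at 23.6 and 23.4, also with the active pattern. NR2F1 (ENSG00000175745, chr5:92918928-92930317) was at 1.46 and 1.77, with H3K4me3 in both replicates and H3K27ac in replicate 1 alone. NR2F1 thus lay below both of its relatives in each library.

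Of the estrogen and estrogen-related receptors 1 in 5 was expressed. This was ESRRA (ENSG00000173153, chr11:64072969-64084215), an orphan receptor that works with PGC-1 coactivators on mitochondrial genes, at 7.13 and 7.61 FPKM with the active pattern. ESR1 (ENSG00000091831, chr6:151977826-152450754), estrogen receptor alpha, was at 0.049 and 0.040 and ESR2 (ENSG00000140009, chr14:64550950-64804830), estrogen receptor beta, at 0.064 and 0.061. ESR1 had H3K27me3 at 6 start sites in both replicates and H3K4me3 at 6 in replicate 2 alone, where the peaks shared 977 bp. ESR2 had 2 kinds of start: the canonical region had H3K4me3 and H3K27me3, with 881 and 701 bp shared, and the region 43702 bp upstream of it had H3K4me3 and H3K27ac. ESRRB (ENSG00000119715, chr14:76777055-76968180) was at 0.058 and 0.035, with H3K27me3 over 34.7 and 12.2 kb of the gene and its flanks. ESRRG (ENSG00000196482, chr1:216676588-217311097) was at 0.010 and 0.010 although H3K4me3 and H3K27ac lay in both replicates at 6 of its start sites. The start regions with those marks were at 0 FPKM and also had H3K27me3 in replicate 1. In replicate 2 H3K27me3 lay at 2 start sites of another region, so no TSS had it in both and ESRRG counts under the active pattern. H3K27me3 covered 22.1 and 8.37 kb of ESRRG and its flanks.

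Among steroid hormone receptors, NR3C1 (ENSG00000113580, chr5:142657496-142815077), the glucocorticoid receptor, was at 7.79 and 9.71 FPKM with the active pattern. NR3C2 (ENSG00000151623, chr4:148999913-149365850), the mineralocorticoid receptor, was at 1.23 and 1.35 and was the only expressed receptor gene with H3K27me3 at a TSS in both replicates. That mark lay at its 5′-most start, where it shared 782 and 1432 bp with H3K4me3, and covered 1.15 and 1.46 kb in all. RNA from that start region was 0.501 and 0 FPKM, and from the canonical region, with H3K4me3 and no H3K27me3, 0.721 and 1.24 FPKM. PGR (ENSG00000082175, chr11:100900355-101000544), the progesterone receptor, was listed at 0 in both libraries, with H3K27me3 at 4 start sites in both replicates. H3K27me3 covered 20.8 and 7.49 kb of PGR and its flanks, and near the start sites it shared 1165 and 1299 bp with H3K4me3.

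NR4A receptors are immediate-early orphan receptors that act without a ligand. NR4A1 (ENSG00000123358, chr12:52416616-52453291) was at 1.26 and 1.02 FPKM, the lowest of the expressed genes, NR4A3 (ENSG00000119508, chr9:102584137-102629173) at 0.204 and 0.214 and NR4A2 (ENSG00000153234, chr2:157180949-157198860) at 0.189 and 0.143. All had H3K4me3 in both replicates, at 9, 2 and 8 start sites, and H3K27ac in both replicates only at 1 start site of NR4A2. Over the gene and its 5-kb flanks, H3K4me3 covered 7.08 and 6.24 kb at NR4A1, 6.18 and 6.28 kb at NR4A3 and 8.80 and 6.23 kb at NR4A2. Part of this lay away from the start sites of these genes. Low RNA thus stood beside H3K4me3.

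In the last group NR6A1 (ENSG00000148200, chr9:127279554-127533590), the germ cell nuclear factor, was at 1.55 and 1.86 FPKM with the active pattern, and the others were under 0.1 FPKM. NR5A1 (ENSG00000136931, chr9:127243515-127269699), the steroidogenic factor, was at 0.017 and 0.012, with H3K4me3 at 4 start sites in replicate 2 alone and H3K27me3 in each replicate but at no shared TSS. NR5A2 (ENSG00000116833, chr1:199996742-200146548), a liver and pancreas factor, was listed at 0 in both libraries with H3K27me3 at all 6 of its start sites. The mark covered 67.5 and 24.2 kb of NR5A2 and its flanks, the widest extent of that mark among the 43 genes in both replicates. NR0B2 (ENSG00000131910, chr1:27237980-27240466), the small heterodimer partner, which lacks a DNA-binding domain, was also listed at 0, with no peak of any mark at its TSS.

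In the order of levels, NR2F2, RXRB, NR2F6 and NR1H2 were at or above 20 FPKM in both libraries, and 14 genes were at or above 5. Of the 22 neighbouring pairs among the 23 expressed genes, 13 had library values that overlapped and 9 did not, so much of the order is not resolved by 2 libraries. NR2F2 was above RXRB in both libraries, while NR1H2, at 21.0 and 24.5 FPKM, overlapped NR2F6. Of the expressed genes 17 were higher in library 2. A further 15 genes were below 0.1 FPKM in both libraries, of which 5 were listed at 0 in both. The plot of FPKM by library shows a drop from HNF4G down to the last rows.

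**Figure D2:**
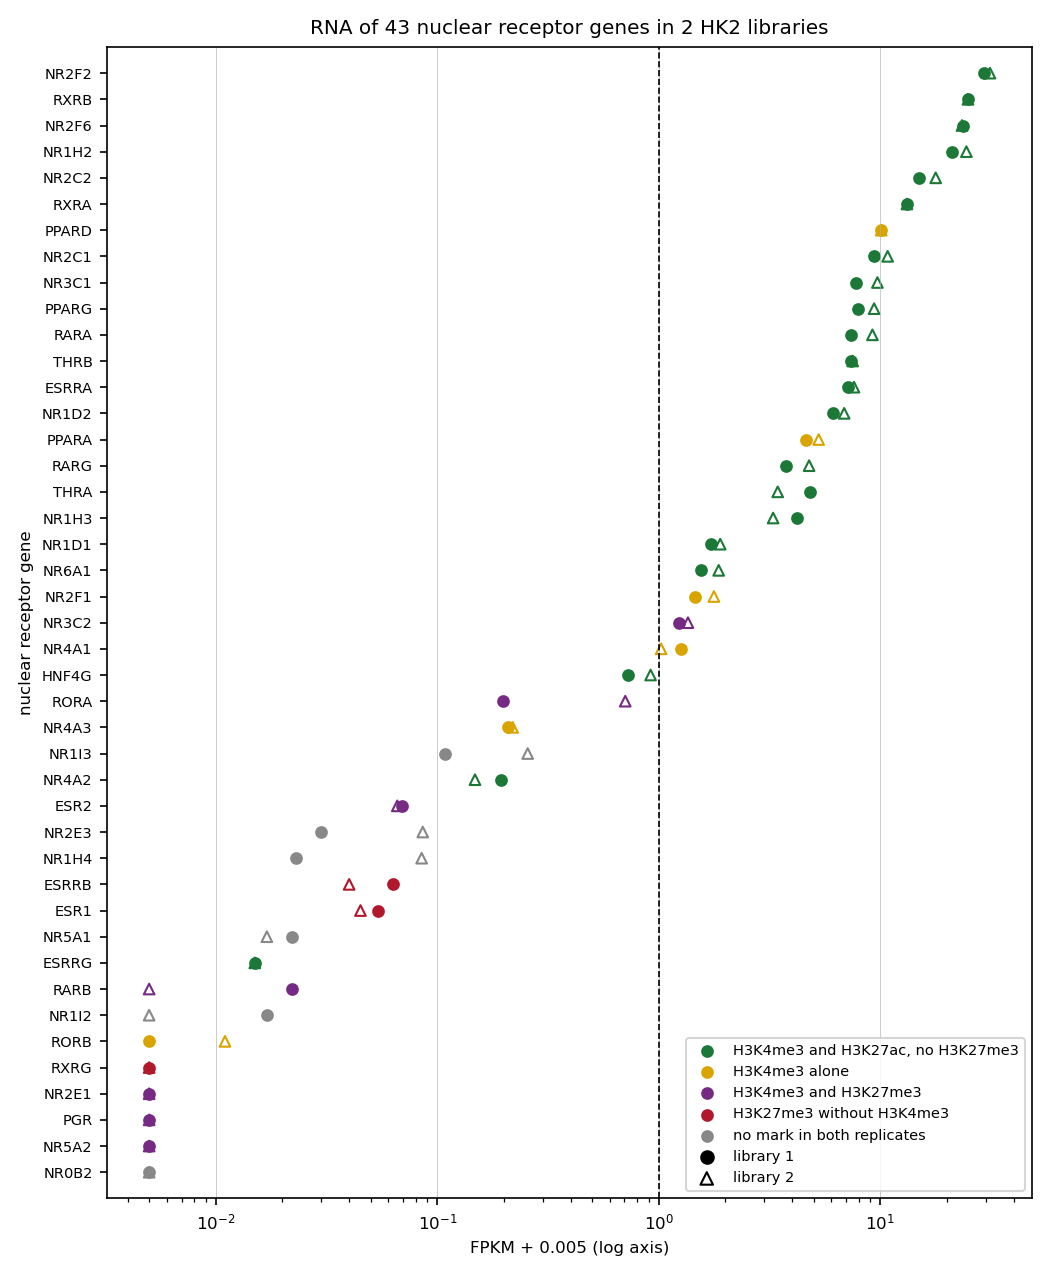
FPKM plus 0.005 on a log axis for the 43 receptor genes (rows) in library 1 (filled circles) and library 2 (open triangles), coloured by the marks at their start sites; the dashed line is an FPKM of 1. The 23 genes to the right of the line in both libraries end with NR4A1 at 1.26 and 1.02, and genes at the left edge were listed at 0.

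Start region use was read from the FPKM of transcripts placed on hg19. The expressed receptor genes had 121 start regions, of which 52 had H3K4me3 in both replicates, and those 52 held 83.1% and 83.5% of their summed FPKM in libraries 1 and 2. Of 34 regions that carried at least 10% of the FPKM of their gene in both libraries, 30 had H3K4me3 and 4 did not. At NR2F2 the 5′-most start held 19.3 and 19.9 FPKM and the canonical start 9.21 and 9.76, so the share was near equal in the libraries. At RXRA the internal start held 10.8 and 10.8 FPKM, all of it in 1 transcript with no defined coding sequence, against 2.28 and 2.39 at the canonical start. That internal start had H3K4me3 in replicate 2 and H3K27ac in replicate 1, and neither in both. At NR2C2 a start at chr3:15045422 held 10.5 and 11.6 FPKM over 2 transcripts, with no mark in both replicates, and the canonical region, with the active pattern, held 2.78 and 4.19. FGD5-AS1, an lncRNA on the opposite strand with an annotated start 37 bp from a start site of NR2C2, was at 46.0 and 49.4 FPKM over all its transcripts.

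At some genes the division of FPKM among start regions was not stable between libraries. ESRRA held 5.87 FPKM at its canonical start in library 1 and 1.34 in library 2, and 0.835 and 6.16 at a second region 730 bp downstream, although its gene totals were 7.13 and 7.61. RARA divided into 2.50 and 1.58 FPKM at its canonical start, 3.93 and 2.06 at the next and 0.864 and 5.19 at another. RARG held 62.4% and 86.1% at its canonical region. Values per start region are therefore less firm than values per gene. In contrast NR3C1 took 98.0% and 99.7% of its FPKM from its canonical region, THRB 99.9% and 97.2%, and PPARD 100% in both libraries.

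**Figure D3:**
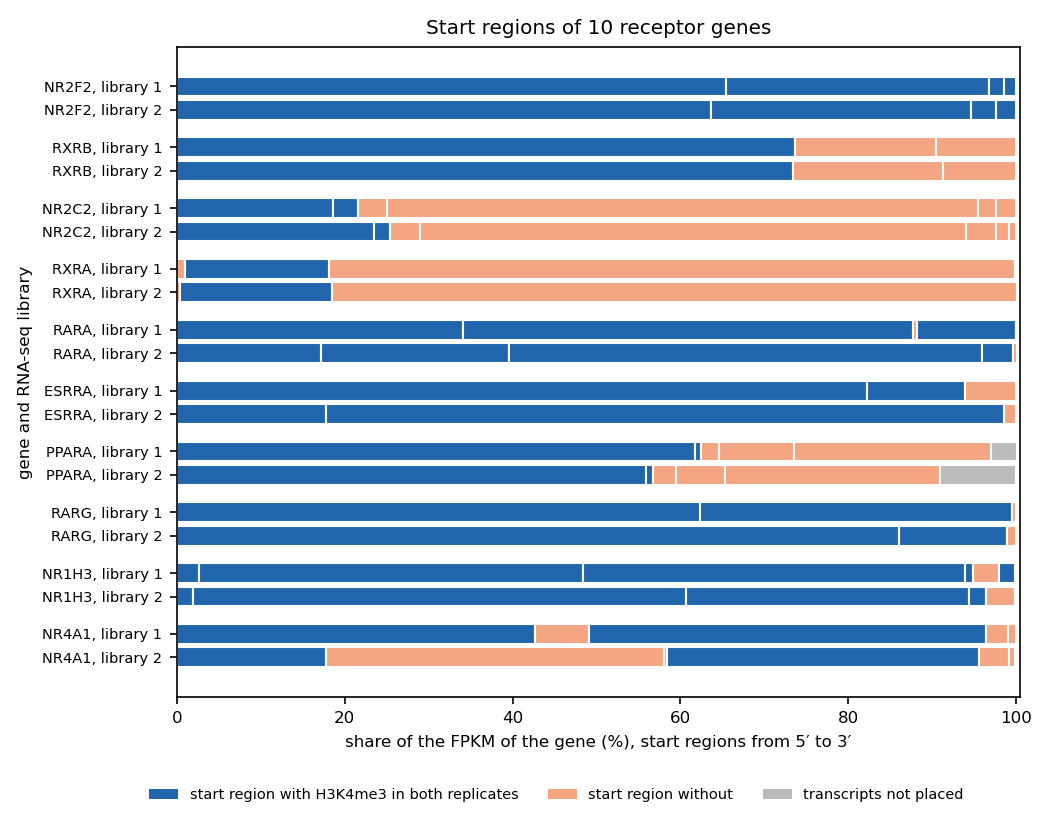
Share of the FPKM of a gene (horizontal axis, percent) by start region, from 5′ to 3′, in each library, for the 10 expressed receptor genes with at least 2 regions at 10% or more; blue regions had H3K4me3 in both replicates, orange ones did not, and grey is RNA of transcripts not placed on hg19. RXRA and NR2C2 have most of their bar in orange, and the ESRRA bars divide at 82.3% in library 1 and 17.7% in library 2.

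Extent of H3K27ac over the gene and 5 kb on either side was wider in replicate 1 at all 35 receptor genes with any such peak. THRB had 66.7 and 11.2 kb, NR6A1 63.2 and 21.2 kb, and PPARG 26.4 and 6.81 kb. Counting regions in the peaks of both replicates that are more than 1 kb from any annotated start of any gene, 18 receptor genes had 67 in all, with a 439-bp region inside NR1D1, which is also in the 5-kb flank of THRA, counted for both. NR6A1 had 14, over 10.7 kb, the widest of them 3245 bp at chr9:127426515-127429759. THRB had 12, over 9.38 kb, the widest 1475 bp at chr3:24342396-24343870. Genes without expression were among the 18, with 6 such regions at ESR1 and 3 at ESRRG. H3K27me3 covered part of 16 receptor genes or their flanks in both replicates, from PPARA with 1.12 and 1.03 kb to NR5A2. The counts of 35, 18 and 16 genes were not made over all protein-coding genes, so they are not read as traits of receptor genes.

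**Figure D4:**
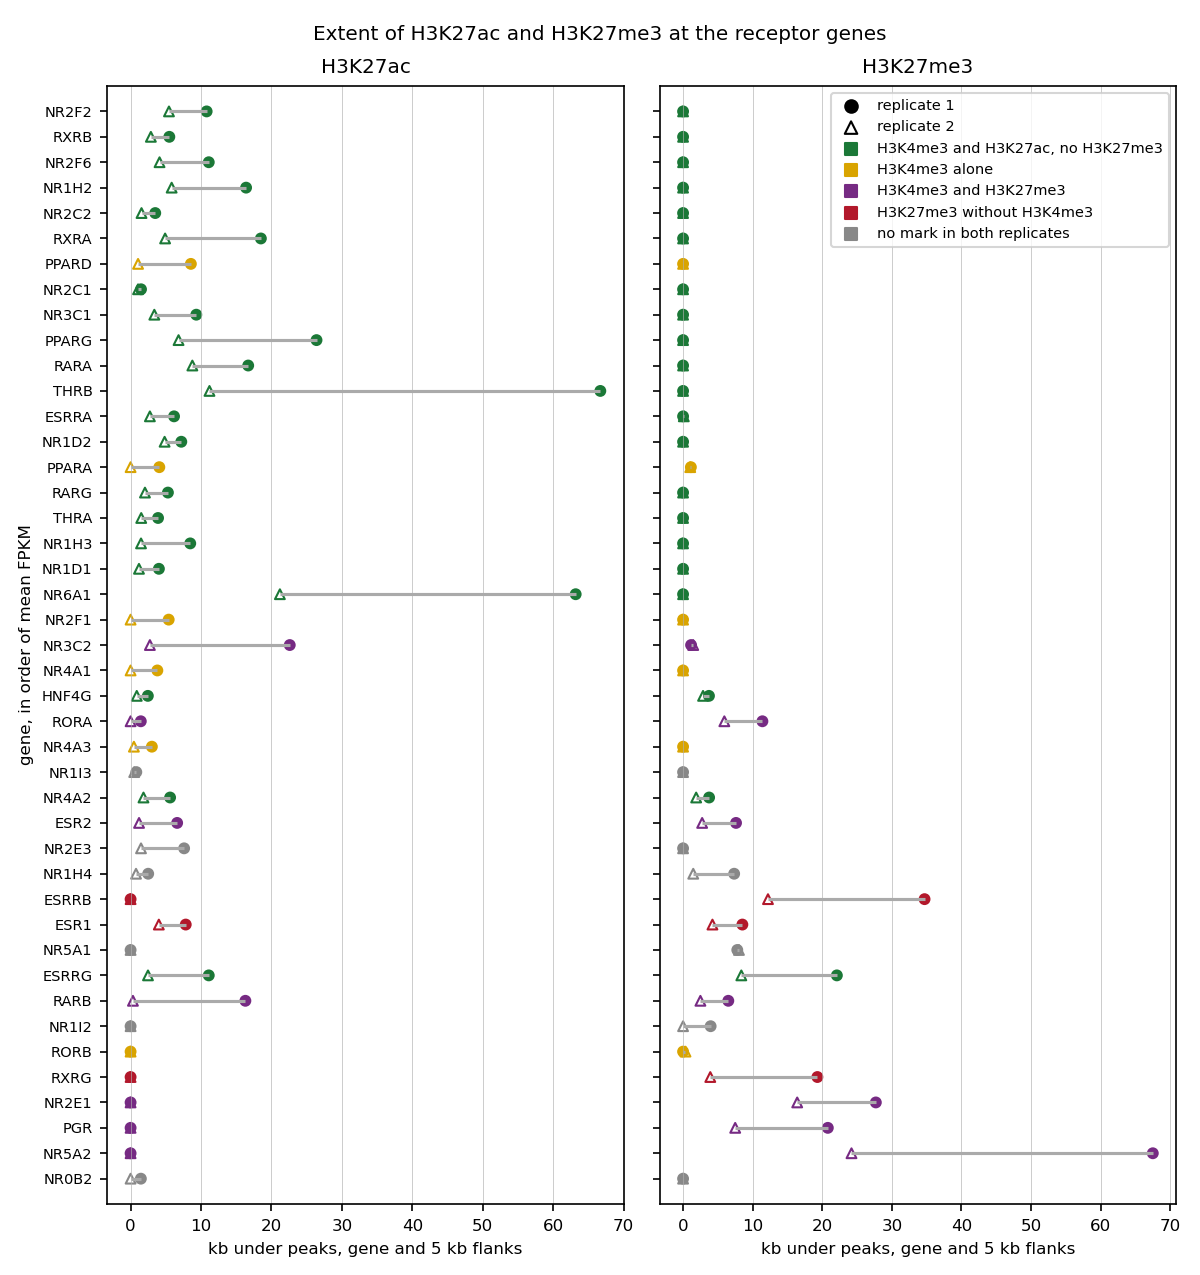
Kilobases under H3K27ac peaks (left) and H3K27me3 peaks (right) over each of the 43 receptor genes and 5 kb on either side, in replicate 1 (filled circles) and replicate 2 (open triangles), in order of mean FPKM and coloured by the marks at start sites. H3K27ac was wider in replicate 1 at all 35 genes that had it, and most of the H3K27me3 extent lies in the lower rows, with NR5A2 at 67.5 and 24.2 kb.

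Before the 206 start regions of the 43 genes, observed over expected CpG (CG count relative to the product of C and G counts) in the 250 bases had a median of 0.34. It was 0.75 at 40 regions with H3K4me3 and H3K27ac, 0.76 at 21 with H3K4me3 alone and 0.75 at 11 with H3K4me3 and H3K27me3. Regions with H3K27me3 and no H3K4me3 had 0.43 (9 regions) and those with no mark in both replicates 0.22 (121 regions), and the 4 regions with H3K27ac and neither other mark had 0.02. Start regions of 1 gene are not independent, and no test was run. In the RefSeq promoter table (GRCh38.p14, 300 bases from 250 before to 50 after a start), 39 of the 43 genes matched, with 93 windows. Not matched were HNF4G, NR4A2, NR0B2 and NR2F6. The median observed over expected CpG was 0.58 for these windows and for all 35116 windows of the table.

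**Figure D5:**
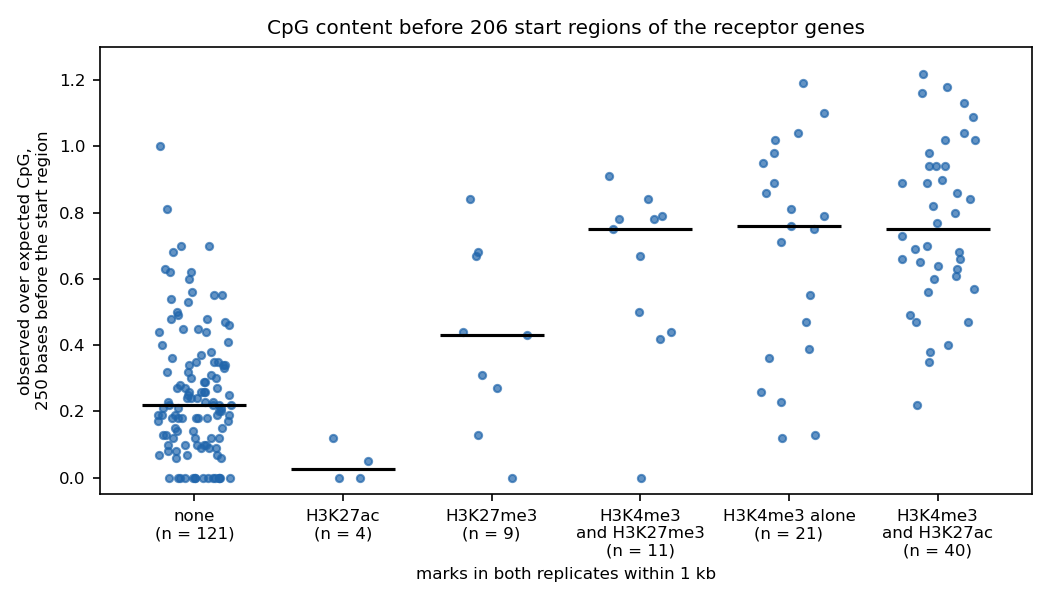
Observed over expected CpG in the 250 bases before each of 206 start regions of the receptor genes (points), by the marks found in both replicates within 1 kb; the bars are medians. Regions with H3K4me3 centre near 0.75 whether H3K27ac, H3K27me3 or neither was present, and those with no mark at 0.22.

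The receptor half-site AGGTCA, searched on both strands, was in 15 of the 93 RefSeq windows (16.1%; all windows 13.8%) and the steroid receptor half-site AGAACA in 13 (14.0%; all windows 14.8%). The E-box CACGTG was in 9 (9.68%; all windows 7.26%), the cyclic AMP element TGACGTCA in 2 (2.15%; all windows 1.85%) and TATAAA in 7 (7.53%; all windows 11.5%). The direct repeat of GTTCA with 6 bases between the copies, added for RARB after its sequence was known, was in 1 window, that of RARB, and in 0.0570% of all windows. With the base before each copy counted into a 6-base half-site, the gap is 1 base shorter. No motif match was taken as a bound site.

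Lists of genes around the receptors were read the same way, beside the 58.8% of all protein-coding genes that were expressed and the 52.1% that had the active pattern. Of 21 coactivators and corepressors 20 were expressed and 19 had the active pattern, and PPARGC1B alone was under the threshold, at 0.437 and 0.326 FPKM. The highest were the arginine methyltransferase PRMT1 at 87.6 and 90.5 FPKM and NCOA4 at 71.8 and 78.4. Of 23 enzymes that form or clear ligands 9 were expressed, led by the retinol dehydrogenase RDH10 at 48.7 and 49.4 FPKM, HSD17B4 at 28.9 and 30.5 and the retinaldehyde dehydrogenase ALDH1A3 at 14.8 and 14.4. Of 11 ligand carriers 4 were expressed, led by the retinoic acid carrier CRABP2 at 40.4 and 40.9, FABP5 at 24.7 and 21.9 and the retinol transporter STRA6 at 2.49 and 2.25. The active pattern was at 4 of the 23 enzymes and 1 of the 11 carriers.

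Genes known as targets were also partly expressed, and several of these lists lay near the 58.8% of all genes. Of 11 glucocorticoid and mineralocorticoid receptor targets 7 were, with the metallothionein MT2A at 1700 and 1684 FPKM, DUSP1 at 49.3 and 48.8 and the kinase SGK1 at 46.9 and 43.8. Of 11 PPAR targets 6 were, led by the lipid droplet protein PLIN2 at 35.9 and 33.3 and ACADM, an enzyme of fatty acid oxidation, at 17.6 and 18.1. Of 10 LXR and FXR targets 5 were, led by the desaturase SCD at 138 and 135, LPCAT3 at 21.6 and 18.8 and the cholesterol transporter ABCA1 at 18.5 and 20.8. Of 11 retinoid and thyroid hormone targets 5 were, among them TGM2 at 77.9 and 74.7 and RARRES3 at 1.88 and 2.87. Of 15 genes of the REV-ERB and ROR circuit 12 were, led by BHLHE40 at 28.0 and 27.2, NFIL3 at 15.0 and 15.2 and CRY1 at 12.7 and 12.1. Of 7 estrogen and progesterone receptor targets 6 were, led by CTSD at 193 and 179, XBP1 at 63.0 and 44.4 and AREG at 43.1 and 42.6. Of 7 xenobiotic receptor targets 1 was, the exporter ABCB1 at 8.58 and 10.7, and CYP3A5 was at 0.139 and 0.143 and CYP2C8 at 0.121 and 0. In the order of these target lists, the active pattern was at 8 of 11, 5 of 11, 4 of 10, 2 of 11, 10 of 15, 2 of 7 and 0 of 7 genes. Many of these genes answer to other factors too, and whether a receptor drives them was not tested.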

How the data were processed

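ChIP-seq peaks and RNA-seq values of HK2 cells were taken as deposited. Per the methods, the authors used Bowtie2 and hg19 for the ChIP-seq reads and MACS2 for the peaks of every replicate. The 6 deposited lists hold the chromosome and the limits of a peak without a score. The replicate of each mark without a number in its label was taken as replicate 1. The authors quantified RNA with HISAT2 and StringTie 1.3.3 on GENCODE version 27, and the deposited FPKM and TPM values per transcript are given in the attribute column, on GRCh38 coordinates, although the methods name hg19 for the RNA reads, and these coordinates were not used with the peaks. Genes and transcripts were joined by Ensembl identifier without version to GENCODE version 44 mapped to GRCh37. Peaks on 24 chromosomes were kept, and overlaps were computed with Python 3.11.15, numpy 2.4.6 and pandas 2.3.3, after the overlap code was checked on simulated peaks. Figures were drawn with matplotlib 3.10.9. No count model was fitted to FPKM values, and depth behind single peaks is unknown.

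The members, gene lists and rules were chosen with earlier results of these data known. Values per library are given for every expressed member and every member with H3K27me3 in both replicates at a TSS, start regions for members with 2 or more regions at 10%, and the 3 genes of highest mean FPKM of each pathway list, except a few genes that are not reported here. Other members and genes were named in addition. Alternatives covered the unit, threshold, transcripts, replicates, window, overlap, peak width, start sites and pseudocount. PECAM1 had no match, and protein sequences were not used here.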

Additional observations from a re-analysis of the deposited data

How the results depend on the processing

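Counts of receptor genes by a single mark and by the active pattern stayed within 1.5 times their value under every alternative run for them, and so did the count of expressed genes (19 to 24). The count with H3K4me3 and H3K27me3 at 1 TSS, 7 as reported, was 11 with peaks of either replicate and ranged from 8 to 11 with one ChIP-seq replicate left out. At the canonical start site alone, an alternative chosen after seeing the data, it was 1. The count with no mark, 6 as reported, was 2 with peaks of either replicate and ranged from 3 to 4 without one replicate. The median of the members was 1.29 FPKM as reported, 3.57 in TPM, 0.693 by the highest transcript of each gene and 5.72 among genes whose mean FPKM reached 0.1. The difference of their median from that of all protein-coding genes on log2(FPKM + 1) was -0.91, became -1.29 with a pseudocount of 0.1, and ranged from -0.91 to -0.89 without one library. The cause of these shifts was not tested, beyond what each alternative changes by construction. No paired analysis was possible because the samples form no groups to contrast. Counts in peak lists without scores are limited by the width and number of peaks called in each replicate, and FPKM under 0.1 rests on few reads.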

Other observations

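Several receptor genes start beside another gene. A peak within reach of both starts cannot be assigned to either gene, nor can reads where transcripts overlap without use of strand. Of the 43 genes 17 had another gene with an annotated start within 1 kb of one of their start sites. For 6 it was a protein-coding gene and for 7 an lncRNA on the opposite strand. These counts were not made over all protein-coding genes, which had a median of 5 start sites against 8 for the receptor genes. Distances below are between the nearest annotated starts, and FPKM values are of the whole neighbour gene. How much of that RNA came from the near start was not measured. SLC39A7, a zinc transporter, starts 161 bp from RXRB and was at 104 and 103 FPKM. ACP2, a lysosomal acid phosphatase, starts 10 bp from a start site of NR1H3 and was at 9.92 and 9.12 FPKM, above NR1H3 in both libraries. MED24, a Mediator subunit, has an annotated start 689 bp from a start site of THRA and was at 31.6 and 26.6 FPKM over all its transcripts. The lncRNA NR2F1-AS1, 86 bp from NR2F1, was at 1.26 and 1.38 FPKM beside 1.46 and 1.77 for NR2F1, and THRB-AS1, 95 bp from THRB, at 0.259 and 0.294. PGR-AS1, 7 bp from PGR, was listed at 0 in both libraries, as PGR was.

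By group, summed mean FPKM after the COUP-TF genes was 39.0 for HNF4G and the retinoid X receptors, 26.7 for the oxysterol, bile acid and xenobiotic receptors and 26.5 for the testicular receptors with NR2E1 and NR2E3. Thyroid hormone and retinoic acid receptors summed to 24.1 FPKM and the PPAR genes to 23.7. The NR4A genes summed to 1.52 FPKM.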
